A study of Mus musculus with 8 samples.

Results

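The cyclin kinase inhibitors and pocket proteins are the genes that stop a dividing cell before DNA synthesis and hold it there. The set comprised 10 genes, taken by symbol from the raw counts of all samples, which list 42391 gene entries: the Cip/Kip inhibitors Cdkn1a, Cdkn1b and Cdkn1c, the Ink4 inhibitors Cdkn2a, Cdkn2b, Cdkn2c and Cdkn2d, and the pocket proteins Rb1, Rbl1 and Rbl2. All 10 symbols were listed, and the rule held no threshold on a measured value.

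Cip/Kip proteins bind cyclin and kinase together and block several cyclin kinases, whereas Ink4 proteins bind Cdk4 and Cdk6 and keep D-type cyclins from activating them. Pocket proteins that have not been phosphorylated by these kinases hold E2F transcription factors and keep genes of DNA synthesis and mitosis silent. In muscle, myoblasts leave the cell cycle for good before they fuse, and p21 (Cdkn1a), p57 (Cdkn1c) and Rb are known for their part in that exit. Cdkn2a encodes p16Ink4a and, in another reading frame, p19Arf, which stabilises p53, and the locus is often lost in cell lines that divide without limit.

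Expression was measured by RNA sequencing in 4 groups of 2 replicates. C2C12 cells, an established line of mouse myoblasts labelled wild type, were transfected with 50 nM non-targeting siRNA (control) or Septin9 siRNA (labelled Septin 9 KD) and collected 60 h later, after 12 h in differentiation medium. Primary myoblasts (pMb) from hindlimb muscle of young mice received the same siRNAs and were collected after 48 h in proliferation medium. All groups went through transfection, and a single Septin9 siRNA was used. C2C12 stands for 1 line, and how many mice gave the primary myoblasts is not given in the sources used here. The replicates came from independent experiments, and differentiation medium and time after transfection differ between the cell types together with the cells.

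Between 20898611 and 27223414 reads were counted per library. Septin9 was at 410 and 435 CPM (counts scaled to one common library size) in C2C12 controls and 147 and 185 CPM after Septin9 siRNA, and at 376 and 473 CPM in pMb controls and 208 and 159 CPM after siRNA. It was lower in every siRNA library than in every control of the same cells. The 9 myoblast markers summed to between 1584 and 2695 CPM in C2C12 libraries and between 4488 and 7653 CPM in pMb libraries. The 8 fibroblast markers summed to between 2405 and 3113 CPM in C2C12 libraries, with Thy1 and Tcf21 at 0 in all of them, and to between 329 and 1027 CPM in pMb libraries. Col3a1 made up most of the C2C12 sums. Without it the other 7 summed to between 149 and 184 CPM in C2C12 libraries. They summed to 15.6 and 13.6 CPM in pMb replicate 1 (control and siRNA) and to 317 and 458 CPM in pMb replicate 2. The list's median log2 difference between the controls was 0.38, higher in primary myoblasts. Of its 6 genes tested, however, 0 passed as higher and 2 passed as lower in primary myoblasts, beside 18.3% and 16.2% of all genes. The 5 endothelial markers stayed at or below 4.77 CPM in sum, and the 6 macrophage and blood cell markers at or below 5.15 CPM. The list of 22 genes of differentiating muscle summed to between 6885 and 23156 CPM in pMb controls and between 141 and 311 CPM in C2C12 controls. The proliferating primary cultures therefore held far more muscle differentiation RNA than the C2C12 cells in differentiation medium. In such bulk samples, fewer cells of a type and less RNA per cell cannot be told apart.

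The members lie on 8 chromosomes of GRCm38.p6. Cdkn2a (chr4:89274473-89294619) and Cdkn2b (chr4:89306289-89311032) are neighbours, and Cdkn2c (chr4:109660876-109666756) lies far from them on the same chromosome. Cdkn1a is at chr17:29090979-29100722, Cdkn1b at chr6:134920401-134925525 and Cdkn1c, in an imprinted cluster, at chr7:143458339-143461059. Cdkn2d is at chr9:21288459-21291421, Rb1 at chr14:73192858-73325951, Rbl1 at chr2:157145893-157204534 and Rbl2 at chr8:91070057-91123844. Rb1 contains Lpar6, at 182 to 517 counts per library, Rbl2 overlaps Aktip, at 491 to 3206 counts, and Cdkn2b lies inside Gm12610, at 0 to 22 counts. Whether the counting used strand is not given in the sources used here, so reads of overlapping genes cannot be told apart with certainty. Counts per gene do not separate the p16Ink4a and p19Arf transcripts of Cdkn2a.

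Promoter windows of 250 bases before the transcript start, from RefSeq on GRCm38.p6, were found for 8 of the 10 members, in 11 windows. Cdkn1c and Rb1 had no entry. The core of an E2F site, TTNNCGC with C or G at each N, was searched on both strands. It stood in 3 of the 11 member windows and in 7.89% of all 32817 windows. The 3 windows, all on the minus strand, belong to Rbl1, Cdkn2c and the more distant start of Cdkn2a, from which p19Arf is made. Those of Rbl1 and Cdkn2c are shown because these genes differed between the C2C12 replicates in the direction of the dividing cell genes. Cdkn2d, without such a match, did so too. Cdkn2a had no reads in C2C12 libraries, and its window is shown only as the remaining one with a match. Capitals mark the match, which begins 17, 25 and 98 bases before the start of Rbl1, Cdkn2c and Cdkn2a.
Rbl1, chr2:157204535-157204784: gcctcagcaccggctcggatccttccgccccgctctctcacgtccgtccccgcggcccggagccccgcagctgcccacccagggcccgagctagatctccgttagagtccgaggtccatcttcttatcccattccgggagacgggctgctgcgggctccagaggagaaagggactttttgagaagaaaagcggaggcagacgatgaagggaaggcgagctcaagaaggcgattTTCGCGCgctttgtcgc
Cdkn2c, chr4:109666757-109667006: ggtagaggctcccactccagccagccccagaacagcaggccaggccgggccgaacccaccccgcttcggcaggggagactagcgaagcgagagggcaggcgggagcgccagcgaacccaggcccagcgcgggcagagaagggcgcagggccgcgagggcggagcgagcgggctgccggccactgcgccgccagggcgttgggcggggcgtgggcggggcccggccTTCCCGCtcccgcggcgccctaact
Cdkn2a, chr4:89294620-89294869: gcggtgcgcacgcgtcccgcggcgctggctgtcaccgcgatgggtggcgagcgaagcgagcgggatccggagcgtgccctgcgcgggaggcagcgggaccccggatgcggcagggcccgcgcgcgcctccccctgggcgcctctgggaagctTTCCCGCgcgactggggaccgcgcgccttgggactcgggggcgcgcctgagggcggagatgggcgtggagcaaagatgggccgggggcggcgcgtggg
For Cdkn1a, the member called in both cell types, capitals in the window of the nearer start mark an E box (CAGCTG or CACCTG, here read on the other strand) and the GC boxes (GGGCGG), the letters bound by MyoD-type factors and by Sp1. The E box begins 187 bases and the GC boxes 104 and 46 bases before the start.
Cdkn1a, plus strand, chr17:29093519-29093768: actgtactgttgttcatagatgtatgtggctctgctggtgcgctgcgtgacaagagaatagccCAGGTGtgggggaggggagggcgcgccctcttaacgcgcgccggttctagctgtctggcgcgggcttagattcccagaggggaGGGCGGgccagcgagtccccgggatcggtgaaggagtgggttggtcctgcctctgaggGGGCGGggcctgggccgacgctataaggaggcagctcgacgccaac
E boxes stood in 2 of the 11 member windows and 27.7% of all windows, and GC boxes in 6 of 11 and 32.7%. The cell cycle homology letters TTTGAA or TTCGAA stood in 2 of 11 and 17.1%. A match of letters is a description and no evidence of binding.

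**Figure D1:**
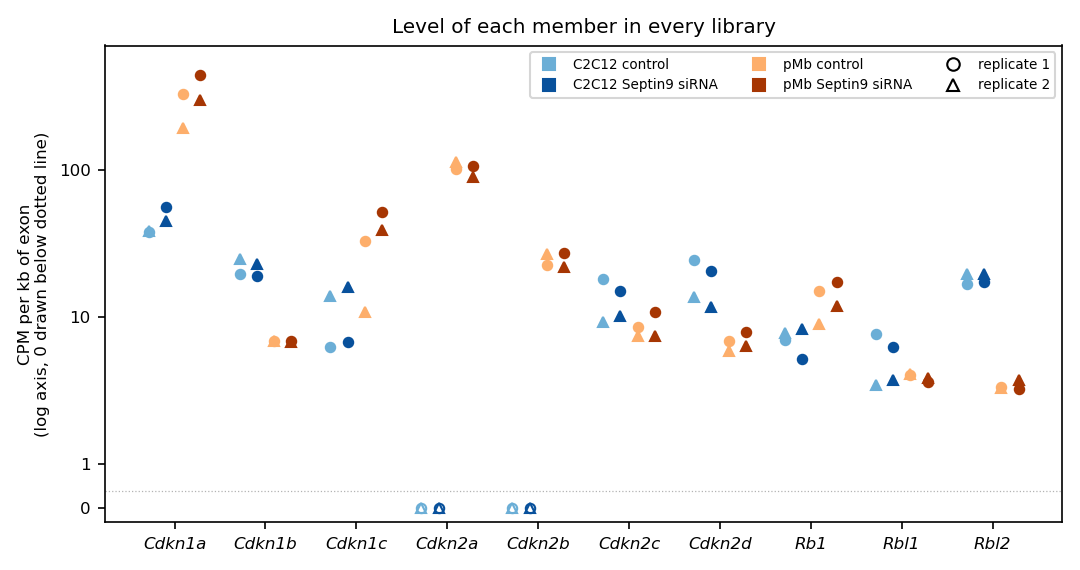
Level of each of the 10 members in every library, in CPM per kilobase of exon on a log axis, with 0 drawn as open symbols under the dotted line; colours mark the 4 groups, circles replicate 1 and triangles replicate 2. Cdkn2a and Cdkn2b are at 0 in all 4 C2C12 libraries, and Cdkn1a is the highest member in both cell types.

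In control C2C12 cells the most abundant member was Cdkn1a, and 2 of the 4 Ink4 genes, Cdkn2a and Cdkn2b, had no reads at all. In control primary myoblasts Cdkn1a and Cdkn2a were the most abundant members and the pocket protein p130 (Rbl2) the least, although with the longest transcript as length p107 (Rbl1) came below it (5.00 against 5.05). Levels of different genes were compared as CPM per kilobase of exon (per-kilobase level). For Cdkn1a only the first of its 2 entries was used. The second drew more reads than the first in C2C12 libraries and fewer in pMb libraries. By the first entry Cdkn1a had per-kilobase levels of 37.9 and 38.6 in C2C12 controls and 327 and 192 in pMb controls. In C2C12 controls it was followed, at means between 22.2 ± 3.77 and 10.1 ± 5.38 (SD, n = 2), by Cdkn1b, Cdkn2d, Rbl2, Cdkn2c and Cdkn1c, whose neighbours in this order overlapped between replicates. Rb1 at 7.35 ± 0.619 and Rbl1 at 5.56 ± 3.02 (SD, n = 2) came next and also overlapped. In pMb controls the mean of Cdkn2a was 107 ± 8.30 and that of Cdkn2b 24.6 ± 2.74, and Cdkn1c at 21.8 ± 15.4 and Rb1 at 11.9 ± 4.29 (SD, n = 2) followed. Cdkn1c overlapped with both Cdkn2b and Rb1. The remaining members, from Cdkn2c at 7.95 ± 0.811 down to Rbl2 at 3.29 ± 0.0223 (SD, n = 2), did not overlap with their neighbours in the order. The per-kilobase levels of the 4 Ink4 genes summed to 42.2 and 22.9 in C2C12 controls and 139 and 153 in pMb controls. The 3 pocket protein genes summed to 31.2 and 30.7 in C2C12 controls and to 22.3 and 16.2 in pMb controls.

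The controls of the cell types were then compared gene by gene, with edgeR's quasi-likelihood test and Benjamini-Hochberg adjustment. Of all 17103 genes tested, 34.5% differed at an adjusted p under 0.05, 18.3% being higher and 16.2% lower in primary myoblasts, and 25.3% differed by at least 1 on the log2 scale as well. Of the 10 members, 3 were higher in primary myoblasts (Cdkn1a, Cdkn2a and Cdkn2b), 3 were lower (Cdkn1b, Cdkn2d and Rbl2) and 4 did not pass the test. All 6 differed by at least 1 on the log2 scale. Cdkn2a and Cdkn2b entered the test through their pMb reads alone. With at least 10 counts required in every library, 4 members were called. The median log2 difference of the members was 0.13, that of all genes 0.01.

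p16Ink4a and p19Arf (Cdkn2a) and p15Ink4b (Cdkn2b) had 0 reads in each of the 4 C2C12 libraries. The 48106182 reads of the C2C12 controls allow at most 0.0610 CPM, the level of 3 counts over the 2 libraries, which covers counting error only. In pMb controls Cdkn2a had 2756 and 3554 reads, or 118 and 132 CPM, and Cdkn2b had 734 and 993 reads, or 31.5 and 36.9 CPM. The difference was at least 2052-fold for Cdkn2a and at least 561-fold for Cdkn2b. Both genes passed the filter on low counts through their pMb reads alone. The adjusted p-values of 0.0022 and 0.0028 in the edgeR test are therefore no separate support. Every pMb library was far above every C2C12 library for both genes.

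Genes on either side of the 2 members were read in both cell types. Mtap, an enzyme of methionine salvage whose centre lies 125.3 kb from that of Cdkn2a, had between 2833 and 3675 reads in C2C12 libraries and between 3561 and 6040 in pMb libraries. Its log2 difference between the controls was 0.48 (SE 0.24, edgeR adjusted p = 0.18). Klhl9, a ubiquitin ligase adaptor 564.1 kb away on the same side, had between 2118 and 3509 reads in C2C12 libraries and between 2661 and 3407 in pMb libraries. The interferon genes Ifnb1, Ifna2 and Ifna4 had at most 1 read each in any library. On the other side, Dmrta1 at 406.9 kb had at most 1 read in any library of either cell type, and Elavl2, 2021.3 kb away, had 1 read in each C2C12 library and 3 to 16 in pMb libraries. Tusc1, 4050.3 kb away, had 65 to 100 reads in C2C12 libraries and 52 to 93 in pMb libraries. Of the 13 genes chosen from this stretch, only the 2 members had reads in every pMb library and none in any C2C12 library. Further genes of the stretch, such as Gm12610, were not among those chosen. Of the other 11 genes chosen, Mllt3 was higher in pMb controls (log2 1.11, SE 0.22, edgeR adjusted p = 0.022). Hacd4, an enzyme of fatty acid elongation, was lower there (log2 -3.24, SE 0.18, edgeR adjusted p = 0.0027). RNA counts do not show whether the DNA of a gene is present.

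**Figure D2:**
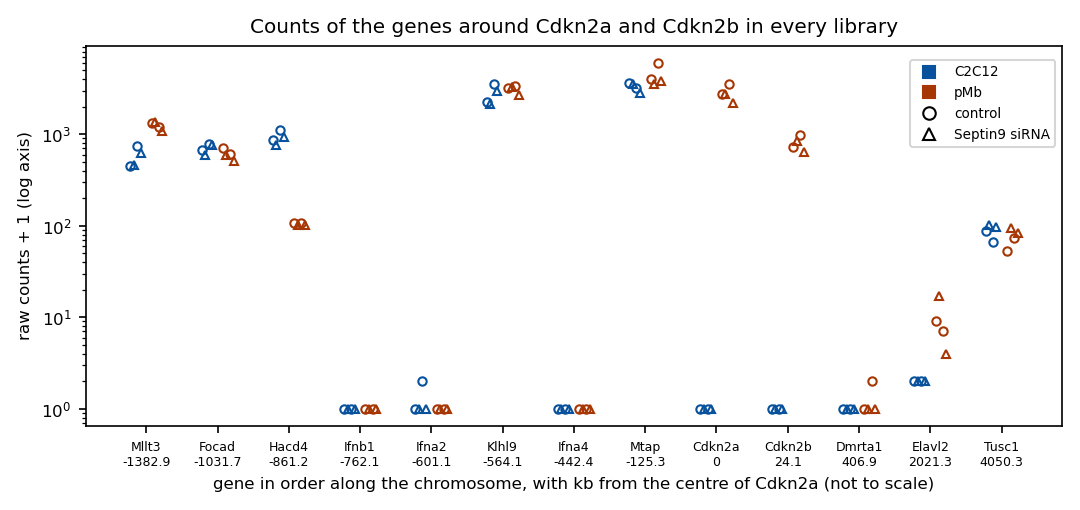
Raw counts plus 1, on a log axis, of 13 genes in their order along chromosome 4, labelled with the distance in kb from the centre of Cdkn2a; blue marks C2C12 and brown pMb libraries, circles controls and triangles Septin9 siRNA. Cdkn2a and Cdkn2b are at 0 counts in all C2C12 libraries, whereas Mtap has at least 2833 counts in every library.

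By the root mean square difference of mean-centred log2 CPM over the 8 libraries, among 17918 genes, the patterns most like that of Cdkn2a were those of Sct (secretin, 0.29), Gal (galanin, 0.43) and Iqsec3 (0.44). The most like Cdkn2b were Tox2 (0.13), Hs6st2 (0.17) and Shroom2 (0.27). These 6 genes were at or below 0.221 CPM in every C2C12 library and at or above 28.5 CPM in every pMb library. The likeness rests on the step between the cell types.

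Cdkn1a had 135 and 137 CPM in C2C12 controls and 1163 and 681 CPM in pMb controls. Both pMb controls lay far above both C2C12 controls, and the log2 difference was 2.77 (SE 0.30, 95% interval 1.99 to 3.56, edgeR adjusted p = 0.0066). Among genes other than its second entry, those most like it over the 8 libraries were Derl3 (0.15), Tle4 and Wfs1 (0.18 each), by the measure used for Cdkn2a. Each was lower in every C2C12 library than in every pMb library. Derl3 had few reads, at or below 0.186 CPM in every C2C12 library and 2.46 CPM in any library.

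The count table lists Cdkn1a a second time, as a further copy, and how reads were shared between the entries is not given in the sources used here. The second entry had 151 and 155 CPM in C2C12 controls and 398 and 225 CPM in pMb controls. It drew 1.11 to 1.13 reads per read of the first entry in C2C12 libraries and 0.319 to 0.342 in pMb libraries, with no overlap, so that part of the size of the difference between the cells depends on the entry used. The log2 difference was 1.04 for the second entry alone (SE 0.30, edgeR adjusted p = 0.052) and 2.10 for both entries summed (adjusted p = 0.011). The call was also lost when either C2C12 control was left out, with edgeR adjusted p-values of 0.057 and 0.071.

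**Figure D3:**
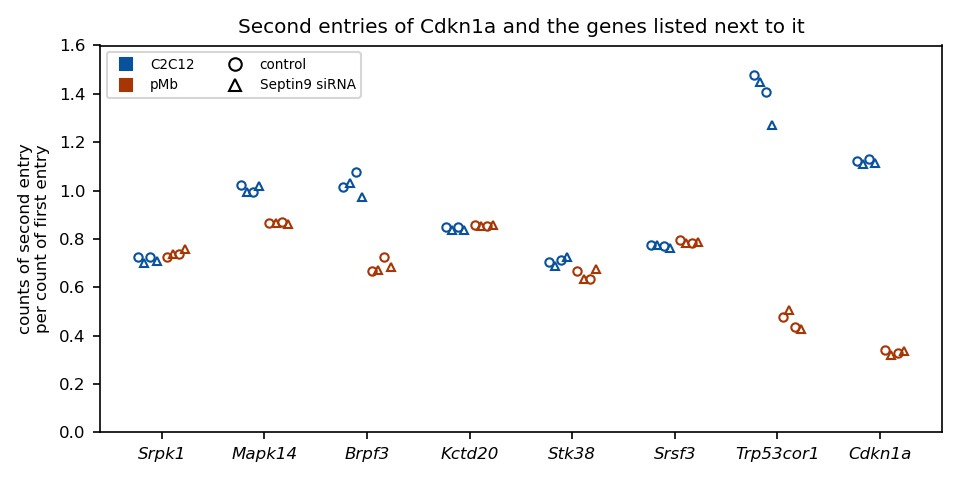
Counts of the second entry per count of the first entry for Cdkn1a and 7 genes listed next to it, in every library; blue marks C2C12 and brown pMb libraries, circles controls and triangles Septin9 siRNA. For Cdkn1a the ratio is 1.11 to 1.13 in C2C12 and 0.319 to 0.342 in pMb libraries. Trp53cor1 shifts likewise, from 1.27 to 1.48 in C2C12 to 0.429 to 0.504 in pMb libraries, whereas Srsf3 stays between 0.762 and 0.794 in all 8.

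p27 (Cdkn1b), the inhibitor whose protein is mainly set by Skp2-dependent degradation, had 88.9 and 113 CPM in C2C12 controls and 31.4 and 31.3 CPM in pMb controls. The groups did not overlap, and the log2 difference was -1.68 (SE 0.17, edgeR adjusted p = 0.0061). p19Ink4d (Cdkn2d) had 38.2 and 21.5 CPM in C2C12 and 10.8 and 9.22 CPM in pMb controls. It was lower in both pMb controls, by a log2 difference of -1.57 (SE 0.33, edgeR adjusted p = 0.024), and the call was lost when any of the 4 libraries was left out, with adjusted p-values between 0.053 and 0.071. p130 (Rbl2), the pocket protein typical of resting cells, had 126 and 147 CPM in C2C12 and 25.0 and 24.8 CPM in pMb controls. This was the most negative difference among the members (log2 -2.45, SE 0.15, edgeR adjusted p = 0.0030).

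The other 4 members did not pass the test between the controls. Cdkn1c had 12.7 and 28.3 CPM in C2C12 and 66.6 and 22.2 CPM in pMb controls, and the groups overlapped (log2 1.12, 95% interval -0.53 to 2.77). Rb1 had 41.6 and 46.9 CPM in C2C12 and 89.9 and 53.4 CPM in pMb controls, without overlap (log2 0.70, 95% interval -0.02 to 1.43). For p18Ink4c (Cdkn2c) the log2 difference was -0.77 (95% interval -1.66 to 0.13) and for p107 (Rbl1) -0.45 (95% interval -1.47 to 0.58). Without pMb control replicate 2, which leaves a single pMb control, the log2 difference was 1.70 for Cdkn1c and 1.02 for Rb1. With each library left out in turn, the difference ran from 0.10 to 1.79 for Cdkn1c, from 0.26 to 1.02 for Rb1 and from -1.18 to -0.23 for Cdkn2c.

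Among the counterparts of the inhibitors, 5 of 16 cyclins and kinases were higher in pMb controls and 1 was lower. Beside this list and those below, 18.3% of all genes were higher and 16.2% lower. The median log2 difference of the cyclins and kinases was 0.48, beside 0.01 over all genes. All 3 D-type cyclins, which Ink4 proteins keep from Cdk4 and Cdk6, were higher. Ccnd2 stood at 6.51 and 6.56 CPM in C2C12 controls and 305 and 433 CPM in pMb controls (log2 5.83, SE 0.26, edgeR adjusted p = 0.0022). Ccnd1 (log2 2.13), Ccnd3 (2.14), Ccne1 (1.95) and Cdk4 (0.73) were higher as well, and Ccnb2 was lower (-1.05). Of 25 genes of p53 and its other targets, 13 were higher and 2 lower in pMb controls, with a median of 0.67. Mdm2, the ligase that removes p53, differed by 1.51 on the log2 scale (SE 0.15, adjusted p = 0.0059), whereas Trp53 itself did not pass the test (0.50, SE 0.15, adjusted p = 0.063). Of 22 tested genes that turn the inhibitors over or repress them, 5 were higher and 2 lower, with Cbx7, a Polycomb protein that binds the Ink4 locus, at a log2 difference of 2.31 (SE 0.34, adjusted p = 0.012) and Cbx8 at -1.73 (SE 0.36, adjusted p = 0.024).

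**Figure D4:**
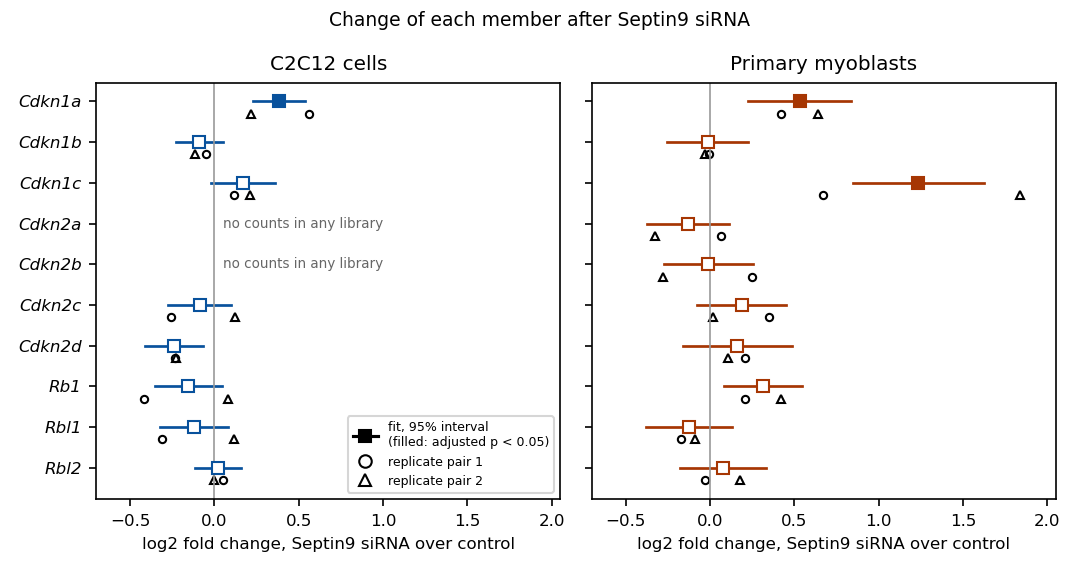
Change of each member after Septin9 siRNA in C2C12 cells (left) and primary myoblasts (right), as log2 fold change; squares and lines give the edgeR fit and its 95% interval, filled where the adjusted p is under 0.05, and small circles and triangles the log2 ratios of replicate pairs 1 and 2. Cdkn1a is filled in both cell types and Cdkn1c in primary myoblasts, where its pairs lie at 0.67 and 1.84.

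After Septin9 siRNA, Cdkn1a rose in C2C12 cells, and Cdkn1a and Cdkn1c rose in primary myoblasts. No member passed the test as lower in either cell type, although some, such as Cdkn2d in C2C12 cells, were lower in both pairs. The comparison asks whether the brakes of the cell cycle change when Septin9, a cytoskeletal GTPase, is depleted. In C2C12 cells 6.75% of 15814 genes passed the edgeR test (2.64% higher and 4.12% lower), and of the 8 members with enough reads 1 was higher and none lower. In primary myoblasts 4.99% of 17117 genes passed (3.95% higher and 1.04% lower), and of the 10 members 2 were higher and none lower. At a change of at least 1.5-fold as well, the background was 1.57% and 3.17% of genes, and the members past it were 0 and 1 (Cdkn1c). With the unadjusted p under 0.05, 2 of 8 and 3 of 10 members passed, beside 18.7% and 16.7% of all genes. The median log2 fold change of the members tested was -0.088 among C2C12 and 0.12 among pMb libraries, beside -0.00079 and 0.010 over all genes.

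Cdkn1a rose from 135 and 137 CPM in C2C12 controls to 199 and 159 CPM in Septin9-deficient cells. Both siRNA libraries lay above both controls, with log2 ratios of 0.56 and 0.22 in the pairs. The log2 fold change was 0.38 (SE 0.07, 95% interval 0.23 to 0.54, edgeR adjusted p = 0.0032), below the fold threshold. The second entry gave 0.36 (SE 0.07, edgeR adjusted p = 0.0048). The call was lost with all 8 libraries in the fit (edgeR adjusted p = 0.20). It was also lost when either pair was left out, where the spread came from primary myoblasts alone.

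In primary myoblasts Cdkn1a was at 1163 and 681 CPM in the controls and at 1558 and 1060.5 CPM after Septin9 siRNA. Each siRNA library lay above the control of its own experiment, by log2 ratios of 0.42 and 0.64, while the groups overlapped, since the controls themselves differed, replicate 2 minus replicate 1, by -0.77. The log2 fold change was 0.53 (SE 0.15, 95% interval 0.23 to 0.84, edgeR adjusted p = 0.039). The adjusted p was 0.11 with RLE size factors, 0.10 with library size alone and 0.054 with both entries of Cdkn1a summed.

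Cdkn1c showed the largest change among the members tested. In primary myoblasts it was at 66.6 and 22.2 CPM in the controls and 106 and 79.3 CPM after Septin9 siRNA. Both siRNA libraries were above both controls, but the controls differed, replicate 2 minus replicate 1, by -1.58 on the log2 scale, and the pairs gave unequal ratios, 0.67 and 1.84. The log2 fold change was 1.24 (SE 0.18, 95% interval 0.85 to 1.62, edgeR adjusted p = 0.0007). The edgeR fit without pair 1 gave 1.85 and that without pair 2 gave 0.67. Each had a single pMb pair and took its spread from C2C12 cells, so only the size is given. With DESeq2 in place of edgeR the call was lost, at an adjusted p of 0.46 on the raw counts with the replicate as a block and 0.077 on the batch-corrected counts. In C2C12 cells Cdkn1c was at 12.7 and 28.3 CPM in the controls and 13.8 and 32.7 CPM after siRNA. The replicates differed far more than the pairs, whose log2 ratios were 0.12 and 0.21, and the fold change of 0.17 did not pass the test (SE 0.09, edgeR adjusted p = 0.34).

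Of the 12 other genes listed around Cdkn1c in its imprinted cluster, 8 had enough reads for the test in C2C12 cells and 7 had in pMb. In C2C12 cells Kcnq1ot1, the long non-coding RNA that silences the cluster on the paternal copy, rose from 3.41 and 3.38 CPM to 4.71 and 6.35 CPM (log2 0.70, SE 0.20, edgeR adjusted p = 0.039). In pMb libraries it read 8.64 and 5.73 CPM in the controls and 7.39 and 4.05 CPM after siRNA. There Tnfrsf23, a decoy receptor gene, rose from 35.9 and 33.4 CPM to 44.2 and 49.6 CPM (log2 0.44, SE 0.12, edgeR adjusted p = 0.036). Phlda2, Kcnq1, Trpm5 and Ascl2 stayed at or below 0.167 CPM in every library, whereas Nap1l4, Cd81, Osbpl5 and Tssc4 were read in all of them and passed the test in neither cell type.

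Cdkn1b was at 85.8 and 105 CPM in Septin9-deficient C2C12 cells and 31.2 and 30.8 CPM in Septin9-deficient primary myoblasts, against the control values above. Its log2 fold changes were -0.09 (95% interval -0.23 to 0.05) and -0.01 (95% interval -0.25 to 0.23), so that neither interval reached a 1.5-fold change.

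Of the Ink4 genes, none passed the test in either cell type. Cdkn2a and Cdkn2b had 0 reads in both Septin9-deficient C2C12 libraries, as in the controls. In primary myoblasts Cdkn2a was at 124 and 105 CPM after siRNA, above the control in pair 1 and below it in pair 2 (log2 fold change -0.13, 95% interval -0.37 to 0.12). The edgeR fit without pair 1 gave -0.32, and that without pair 2 gave 0.06. Cdkn2b likewise moved in opposite directions in the pairs, from 31.5 to 37.6 CPM and from 36.9 to 30.5 CPM (log2 fold change -0.01, 95% interval -0.27 to 0.26). Cdkn2c was at 48.3 and 24.9 CPM in C2C12 controls and 40.4 and 27.0 CPM after siRNA, and at 22.9 and 19.8 CPM in pMb controls and 29.2 and 20.0 CPM after siRNA. Cdkn2d was at 32.5 and 18.4 CPM in Septin9-deficient C2C12 cells, lower than the control of the same experiment in both pairs by 0.23, yet it did not pass after adjustment (log2 fold change -0.24, SE 0.08, unadjusted p = 0.0089, edgeR adjusted p = 0.094). In Septin9-deficient primary myoblasts it was at 12.5 and 9.92 CPM (log2 fold change 0.16, SE 0.15).

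The pocket protein genes did not pass the test either. Rb1 was at 31.2 and 49.6 CPM in Septin9-deficient C2C12 cells, below the control in pair 1 and above it in pair 2 (log2 fold change -0.16, 95% interval -0.35 to 0.04). In primary myoblasts it was at 104 and 71.5 CPM after siRNA, above the control in both pairs by log2 ratios of 0.21 and 0.42 (log2 fold change 0.31, SE 0.11, unadjusted p = 0.011, edgeR adjusted p = 0.12). Without pair 1 the edgeR fit gave 0.43, and without pair 2 it gave 0.20. Rbl1 was at 37.2 and 22.3 CPM in Septin9-deficient C2C12 cells (log2 fold change -0.12, SE 0.10) and at 21.5 and 22.9 CPM in Septin9-deficient primary myoblasts. The latter 2 lay below both pMb controls, at 24.2 and 24.4 CPM (log2 fold change -0.13, SE 0.12, edgeR adjusted p = 0.68). Rbl2 was at 130 and 147 CPM in Septin9-deficient C2C12 cells and 24.5 and 28.0 CPM in primary myoblasts, with 95% intervals of -0.12 to 0.16 and -0.18 to 0.33 for the log2 fold change.

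The difference of the siRNA effect between the cell types was tested as an interaction over all 8 libraries. No gene of 17916 passed in the edgeR test, a background of 0%, while 8.2% had an unadjusted p under 0.05 and DESeq2 called 21 genes. None of the 8 members with reads in both cell types passed, and 3 of 8 had an unadjusted p under 0.05. These were Cdkn1c, with an effect higher in primary myoblasts by 1.06 (95% interval 0.37 to 1.74, edgeR adjusted p = 0.40), Rb1, by 0.47 (95% interval 0.10 to 0.84, adjusted p = 0.48), and Cdkn2d, by 0.39 (95% interval 0.06 to 0.72, adjusted p = 0.51). Of the alternatives that kept both pairs, Cdkn1c passed only without the filter on low counts. In the 4 fits without a pair, its difference ran from 0.51 without pMb replicate 2 to 1.68 without pMb replicate 1. There a cell type had a single pair and no spread of its own, so only the size is given. For Rb1 the fit without pMb replicate 1 gave 0.59. For Cdkn1a the difference was 0.14 (95% interval -0.22 to 0.50).

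Replicates of the controls were often further apart than the siRNA pairs. In C2C12 cells this held for 6 of the 8 members with reads, in primary myoblasts for 3 of 10. The share of all genes for which it held was not counted, so these counts do not set the members apart. Rbl1 stood at 46.1 CPM in C2C12 control replicate 1 and 20.5 CPM in replicate 2, a log2 difference of -1.17. Cdkn2c (-0.96) and Cdkn2d (-0.82) differed in the same direction and Cdkn1c in the other (1.14). The median over all 17918 genes was 0.04, and the median size of the difference 0.25. The list of 18 genes of dividing cells summed to 2431 CPM in C2C12 control replicate 1 and 1155 CPM in replicate 2, and the differentiating list to 141 and 311 CPM. In primary myoblasts the controls differed for Cdkn1c (-1.58), Cdkn1a (-0.77) and Rb1 (-0.75), and the differentiating list summed to 23156 and 6885 CPM, while the dividing list stood at 1994 and 2178 CPM. The fibroblast markers stood apart between the same controls, with a sum of 360 CPM in replicate 1 and 856 CPM in replicate 2. Col1a1 read 6.83 and 248.9 CPM, Pdgfra 1.03 and 31.7 CPM and Dcn 0.258 and 13.3 CPM. Their part in the differences of Cdkn1c, Cdkn1a and Rb1 was not tested.

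The sums of both the differentiating and the dividing list also differed between control and siRNA libraries. The differentiating list summed to 201 and 404 CPM in Septin9-deficient C2C12 cells and to 30787 and 16129.9 CPM in Septin9-deficient primary myoblasts, higher than the control in each pair. Of its genes, 9 of 20 tested were higher in C2C12 cells and 19 of 22 in primary myoblasts, and none were lower, with medians of 0.63 and 0.83. Myogenin (Myog), which drives differentiation, went from 5.19 and 37.5 CPM to 15.9 and 63.7 CPM in C2C12 cells (log2 fold change 1.03, SE 0.12) and from 1019.9 and 401 CPM to 1549.6 and 908 CPM in primary myoblasts (0.89, SE 0.16). The dividing list summed to 2175 and 1075 CPM in Septin9-deficient C2C12 cells and 1662 and 1763 CPM in Septin9-deficient primary myoblasts, lower than the control in each pair. Of its 18 genes, 4 fell in C2C12 cells (Mki67, Top2a, Bub1 and Aurkb) and 1 in primary myoblasts (Aurkb). The median log2 fold change of the dividing list was -0.03 in C2C12 cells, near that of all genes, and -0.30 in primary myoblasts. In C2C12 cells the replication genes Cdt1 (0.33, SE 0.10), Mcm6 (0.18, SE 0.07) and Mcm3 (0.12, SE 0.07) had positive values that did not pass. Others on the list went the other way or were split. Mcm5 read 120 and 43.6 CPM in C2C12 controls and 116 and 41.1 CPM after siRNA. Tyms read 50.7 and 31.3 CPM in those controls and 50.3 and 27.5 CPM after siRNA. Mcm2 and Mcm4 were lower in pair 1 and higher in pair 2. The part of these lists in the changes of Cdkn1a and Cdkn1c was not tested.

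**Figure D5:**
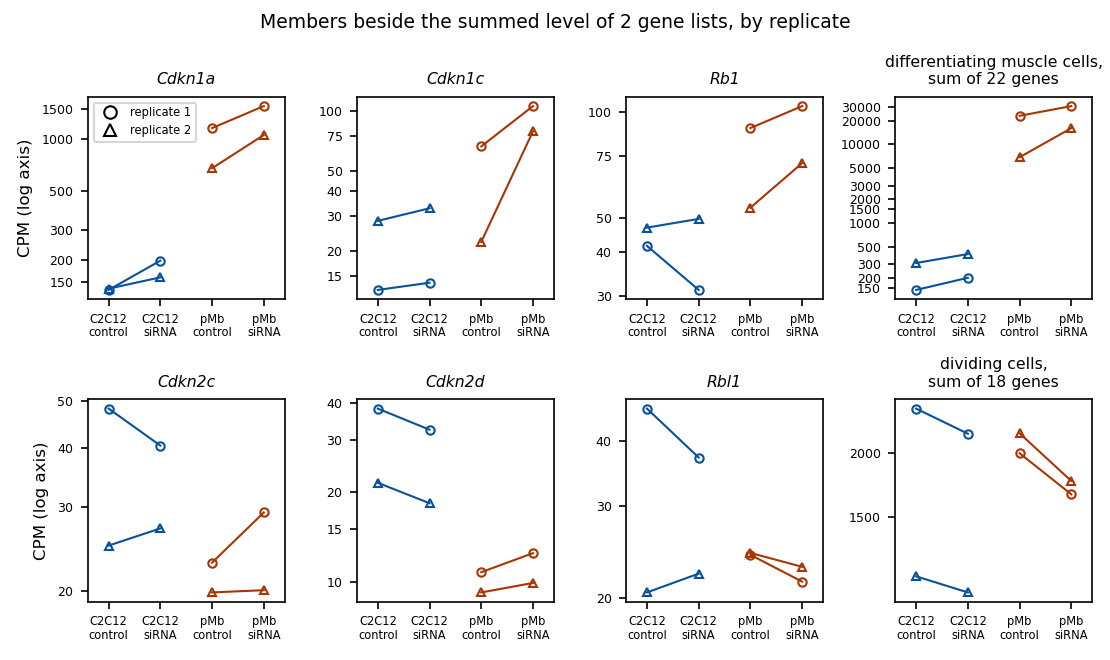
CPM, on log axes, of Cdkn1a, Cdkn1c, Rb1, Cdkn2c, Cdkn2d and Rbl1 in every library beside the summed CPM of 22 genes of differentiating muscle and 18 genes of dividing cells; lines join control and Septin9 siRNA of a replicate, circles mark replicate 1 and triangles replicate 2, blue C2C12 and brown pMb. In C2C12 cells Cdkn2c, Cdkn2d and Rbl1 lie higher in replicate 1, as the dividing list does, and Cdkn1c lies lower, as the differentiating list does.

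Among the cyclins that the inhibitors hold, Ccnd3 rose and Ccnb1 fell in both cell types. Of 16 cyclins and kinases, 2 were higher and 3 lower in C2C12 cells, and 1 was higher and 1 lower in primary myoblasts. Their median log2 fold changes were -0.04 and -0.21. Beside this list and those below, 2.64% of all genes were higher and 4.12% lower in C2C12 cells. In primary myoblasts the shares were 3.95% and 1.04%. Ccnd3, the D-type cyclin of differentiating muscle, rose from 83.5 and 98.3 CPM to 127 and 142 CPM in C2C12 cells (log2 0.56, SE 0.07, edgeR adjusted p = 2.5e-05) and from 430 and 367 CPM to 595 and 514 CPM in primary myoblasts (0.48, SE 0.13, adjusted p = 0.034). Ccnd2 rose in C2C12 cells by 0.59 on the log2 scale (SE 0.14). Ccnd1 had a log2 fold change of -0.46 in primary myoblasts, which missed the threshold (SE 0.13, edgeR adjusted p = 0.055). Ccnb1, the cyclin that starts mitosis, fell by 0.41 on the log2 scale in C2C12 cells (SE 0.07) and fell by 0.43 in primary myoblasts (SE 0.11). Ccna2 and Cdk1 fell in C2C12 cells by log2 changes of -0.34 and -0.23. Cdk4 and Cdk6, the kinases that Ink4 proteins bind, passed in neither cell type.

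Downstream of the pocket proteins, 2 of 20 partners and targets rose and 2 fell in C2C12 cells, and 1 rose and 3 fell in primary myoblasts, with median log2 fold changes of -0.02 and -0.04. Tfdp1, the partner that E2F factors need for binding DNA, fell from 187 and 124 CPM to 83.8 and 66.7 CPM in C2C12 cells (log2 -1.03, SE 0.08, edgeR adjusted p = 2.2e-07) and from 172 and 184 CPM to 86.2 and 63.5 CPM in primary myoblasts (-1.26, SE 0.13, adjusted p = 2.5e-05). E2f2 rose in both (0.49, SE 0.07, and 0.53, SE 0.12) and the repressor E2f7 fell in both (-0.37, SE 0.09, and -0.57, SE 0.14). E2f1 rose in C2C12 cells (0.29, SE 0.09) and Mybl2 fell in primary myoblasts (-0.46, SE 0.12).

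Cdkn1a is a p53 target, and p53 and the other targets were listed beside it. Of these 25 genes none were higher in either cell type, while 6 were lower among C2C12 and 2 among pMb libraries, with median log2 fold changes of -0.08 and -0.20. Zmat3, which encodes an RNA-binding protein, fell in both (-0.54, SE 0.08, and -0.55, SE 0.11), as did Gtse1 (-0.34, SE 0.08, and -0.47, SE 0.11), a gene of the G2 phase. Plk2, Eda2r and Aen fell in C2C12 cells, by log2 changes between -0.44 and -0.29, and the sixth was Ccng1. Trp53 itself had log2 fold changes of -0.02 (SE 0.07) and -0.34 (SE 0.11), with edgeR adjusted p-values of 0.90 and 0.095.

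Among 22 tested genes that turn the inhibitors over or repress them, Cks1b had the smallest adjusted p in both cell types. It encodes the small protein that Skp2 needs to mark p27 for destruction, and fell from 70.1 and 37.9 CPM to 36.5 and 21.3 CPM in C2C12 cells (log2 -0.90, SE 0.07, edgeR adjusted p = 7.1e-07) and from 67.7 and 93.4 CPM to 48.4 and 37.9 CPM in primary myoblasts (-0.89, SE 0.14, adjusted p = 0.0012). Skp2 itself did not pass in either (0.23, SE 0.07, and -0.12, SE 0.11). Besides Cks1b, Ring1, a Polycomb protein, rose in C2C12 cells (0.41, SE 0.10) and Myc, a repressor of Cdkn1a, fell in primary myoblasts (-0.41, SE 0.11). The median of the list was -0.04 and -0.13.

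Transcripts were also searched for GACGTGT, the 7 letters that pair with positions 2 to 8 of the Septin9 siRNA's guide strand, since siRNA can lower transcripts with such a match after the coding sequence. In GENCODE M21 transcripts on GRCm38, 8 of the 10 members had no match. Rb1 had a match in its coding sequence and another after it, and Cdkn1c had 1 in the coding sequence of 1 of its transcripts. After the coding sequence, 563 of 21901 protein-coding genes (2.57%) had a match. Cks1b and Tfdp1 each had 1 there, in 2 of 2 coding transcripts of Cks1b and 2 of 6 of Tfdp1. They were searched because they had the smallest adjusted p of their lists, so their matches are a description only. The genes with the smallest adjusted p of the other lists were not searched. The sites are shown with 11 bases on either side, with the match in capitals.
Rb1, minus strand, coding sequence, match at chr14:73288741-73288747: aaattagaacgGACGTGTgaacttatata
Rb1, minus strand, after the coding sequence, match at chr14:73196258-73196264: tttccctcataGACGTGTctaattacatc
Cdkn1c, minus strand, coding sequence, match at chr7:143460689-143460695: tgggcatgtccGACGTGTacctccgcagc
Cks1b, minus strand, after the coding sequence, match at chr3:89415605-89415611: gtgaatttgctGACGTGTtttttactatt
Tfdp1, plus strand, after the coding sequence, match at chr8:13378072-13378078: tatcatttaaaGACGTGTactgaaacaaa
Rb1, the member with a match after the coding sequence, changed by -0.16 (log2, C2C12 cells) and 0.31 (pMb), neither past the test, and Cdkn1c rose in primary myoblasts. The other members, Cdkn1a among them, had no match. The part of these matches in any change was not tested.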

How the data were processed

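RNA from C2C12 cells and primary mouse myoblasts was sequenced after non-targeting or Septin9 siRNA, with 2 replicates in each of 4 groups, assigned by their labels. Per the labels and the study's methods, the authors mapped reads to GRCm38.p6 with STAR 2.7.2, counted them per gene with featureCounts 2.0.1 and deposited the raw counts. They also deposited, per cell type, a normalized signal made from ComBat-Seq adjusted counts with DESeq2 1.40.1. All of its values (100%, within 0.05) were whole multiples of 1 read per sample, so whole batch-corrected counts were recovered and used as an alternative. The raw table held 42391 entries after 16 broken lines were left out, 2379 of them further copies of a listed gene.

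Counts were analysed with edgeR 4.0.16 in R 4.3.3: filterByExpr, TMM scaling and the quasi-likelihood test, each cell type alone with the replicate number as a block, following the study's removal of batch effects. The numbers mark independent experiments, and same-numbered libraries deviated together (correlation 0.678 in C2C12 cells and 0.820 in primary myoblasts, with 2 pairs each). The controls were compared without a block. P-values were adjusted over all genes tested by the Benjamini-Hochberg method, at 0.05, with a 1.5-fold threshold where stated. CPM were scaled by TMM over all 8 libraries, pair ratios used a prior count of 2, and per-kilobase levels used the exon union of GENCODE M21, while the study's methods name an earlier GENCODE release for the counting and 887 symbols of the table begin with LOC, a form used by RefSeq. Precision rests on 20898611 to 27223414 reads per library and 2 replicates. Alternatives were RLE or library size scaling, no filter, at least 10 counts in every library, the fit without or with the block, DESeq2 1.42.0 on raw or batch-corrected counts, all 8 libraries in one fit, each replicate left out, the longest transcript as length and, added after the data were seen, Cdkn1a summed with its second entry.

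The members and lists were chosen with earlier results of these data known. Named are the members, Septin9, listed genes that passed the test (at most 5 per list and cell type, by adjusted p), the genes around Cdkn2a and Cdkn1c, marker genes and the 3 genes most like each of the 3 members with the largest range. Other listed genes (Ccng1, Ccnd1, Trp53, Mdm2, Cdk4, Cdk6, Skp2, Cbx7, Cbx8, Ccne1, Ccnb2, Lpar6, Aktip, Cdt1, Mcm6, Mcm3, Mcm5, Tyms, Mcm2, Mcm4, Srsf3, Brpf3, Srpk1 and Gm12610) were named after their values were seen. Python 3.11.15 with pandas 2.3.3 and matplotlib 3.10.9 was used for the other steps.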

Additional observations from a re-analysis of the deposited data

How the results depend on the processing

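Each group held 2 replicates, depth left levels under 0.0610 CPM unseen in C2C12 controls, and the number of genes called moved with the processing. Among the alternatives for the members, 353 values kept their direction and their side of the threshold, 17 lost a call, 10 gained a call and 13 turned in sign. Without the replicate block no gene and no member was called in either cell type (0 genes, against 1068 and 854 with the pairing), while Cdkn1a and Cdkn1c kept their direction. In C2C12 cells DESeq2 called 283 genes and the fit of all 8 libraries 111 genes, with 0 members in the latter, and leaving out a pair left 98 to 181 genes and 0 members. In primary myoblasts RLE factors called 295 genes, library size alone 236 and DESeq2 256, with 1 member each. RLE and library size called Cdkn1c, and DESeq2 on raw or batch-corrected counts called Cdkn1a. Summing the entries of Cdkn1a also left 1 member, and leaving out a pair gave 1277 to 2020 genes and 2 to 4 members. The interaction had 255 genes and 1 member (Cdkn1c) without the filter and 21 genes with DESeq2, and 51 to 844 genes and 1 to 2 members without a replicate. Between the controls, leaving out a library gave 512 to 4760 genes and 4 to 7 members. Fits without a pair took the spread from the other cell type, whose libraries the lone samples were assumed to resemble.

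Turned in sign without pair 1 in C2C12 cells were Cdkn2c (0.12), Rb1 (0.083) and Rbl1 (0.12), with lows of -0.26, -0.42 and -0.31 without pair 2. Without pair 2 in primary myoblasts Cdkn2a read 0.061, Cdkn2b 0.25 and Rbl2 -0.034, against -0.32, -0.27 and 0.18 without pair 1, and Cdkn2b read 0.014 with DESeq2 on batch-corrected counts. In the interaction Rbl1 read 0.035 without the block and -0.25 to 0.18 without a replicate, Cdkn1a -0.031 to 0.31 and Rbl2 -0.046 to 0.17. Rbl1 between controls read -0.93 to 0.24. None of these passed the test in the full fit, and the cause was not tested. Per-kilobase levels by the longest transcript moved by more than the replicate spread for 7 of 18 values.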

Other observations

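Trp53cor1, the long non-coding RNA gene next to Cdkn1a, was chosen after its values were seen. It had 1.14 and 0.993 CPM in C2C12 controls and 9.37 and 4.87 CPM in pMb controls, a log2 difference of 2.74 (SE 0.44, edgeR adjusted p = 0.014), close to that of the first entry of Cdkn1a. In Septin9-deficient primary myoblasts it had 10.4 and 9.78 CPM, above both controls, and did not pass the test (log2 fold change 0.56, SE 0.20, adjusted p = 0.13). In C2C12 cells it had 0.932 and 1.55 CPM after siRNA, below the control in pair 1 and above it in pair 2.

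It has a second entry in the table, like Cdkn1a, for which the log2 difference between the controls was 1.10 and did not pass (SE 0.47, edgeR adjusted p = 0.13). The second entry drew 1.27 to 1.48 reads per read of the first in C2C12 libraries and 0.429 to 0.504 in pMb libraries. Of 7 genes listed next to Cdkn1a with a second entry and at least 20 counts in every library, the mean ratio in pMb relative to C2C12 libraries was 0.329 for Trp53cor1 and between 0.671 (Brpf3) and 1.03 (Srpk1) for the others, beside 0.297 for Cdkn1a.

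The per-kilobase levels of the 3 Cip/Kip genes were summed with the first entry of Cdkn1a alone. This sum was 63.7 and 77.3 in C2C12 controls and 81.6 and 83.8 after Septin9 siRNA. In primary myoblasts it was 367 and 209 in the controls and 497 and 344 after siRNA. It was higher after siRNA in each of the 4 pairs, and was not tested. Most of it was Cdkn1a, which alone made up 327 and 192 of the sums in pMb controls. Cdkn1b was lower after siRNA in each of the 4 pairs. The 4 Ink4 genes summed to 35.6 and 21.7 after siRNA in C2C12 cells, below the control in both pairs, and to 151 and 126 in primary myoblasts, above the control in pair 1 and below it in pair 2. The 3 pocket protein genes summed to 28.6 and 31.5 and to 24.1 and 19.4 after siRNA.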
